A study of Mus musculus with 19 samples.

Results

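The genes described here are the 33 mouse genes that take up glucose, break it down to pyruvate and lactate, divert it into the pentose phosphate pathway, or answer to low oxygen. They were chosen by name and grouped by role: 2 glucose transporters, 2 lactate transporters, 10 genes of upper glycolysis and 7 of lower glycolysis. The others were 2 lactate dehydrogenases, 3 genes of pyruvate dehydrogenase and its kinases, 4 of the pentose phosphate pathway and 3 of the hypoxia response. All 33 were found among the 53656 genes of the count tables, and all 33 passed the filter on low counts in every fit.

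Glycolysis turns glucose into pyruvate in the cytosol, and lactate dehydrogenase turns pyruvate into lactate, which leaves the cell through monocarboxylate transporters. The upper steps spend ATP to make triose phosphates, the lower steps earn it back, and the pentose phosphate pathway branches off early to make NADPH and ribose. Activated CD8 T cells are known to raise glycolysis as they grow and divide, and HIF-1α, the oxygen-regulated transcription factor, is known to act on many of these genes.

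RNA was sequenced from mouse CD8 T cells of the strain C57BL/6 in 7 groups, 19 libraries in all, in a study of the nuclear factor TOX. Naive cells (3 libraries) were sorted as CD44low from mice transgenic for the SV40-I T cell receptor, which recognises the tumour antigen. Cells of that line marked by Thy1.1 were taken from malignant liver lesions on days 8 to 9 and sorted as low (marker-low, 3 libraries) or high (marker-high, 3 libraries) for PD1, LAG3 and CD39. On days 20 to 21, Thy1.1-marked SV40-I cells (late SV40-I, 3 libraries) and Ly5.1-marked OT-I cells, whose receptor recognises ovalbumin (late OT-I, 3 libraries), were taken from such lesions. Cultured effector cells were made from naive SV40-I cells by stimulating CD3 and CD28, adding a retrovirus that carried TOX with GFP (TOX-GFP, 2 libraries) or GFP alone (GFP, 2 libraries) and growing them in IL-2, and were sorted as GFP-positive. All RNA was amplified with the same low-input kit. The source field of every sample reads splenocytes, while the titles of 12 libraries name liver lesions. The column headings of the marker-high tables carry WT and those of the marker-low tables KO, while the labels give neither group a genotype, so marker level and genotype cannot be told apart from these sources. No label says whether the libraries of a group came from separate mice or cultures, and each p-value rests on the spread between libraries alone, which may be technical.

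Library totals ran from 37006508 to 54195918 counts, so 3 counts amount to at most 0.0811 CPM (counts per 1000000 of the library total), and depth does not limit most of these genes. Levels below are in CPM and in the order of the library numbers. Log2 fold changes carry their standard error (SE) and an adjusted p from edgeR's quasi-likelihood test, and a gene is called at an adjusted p under 0.05. The comparisons with naive cells share the 3 naive libraries. Tox stood at 359, 577 and 731 CPM in the marker-high libraries against 125, 100.4 and 48.9 in the marker-low ones. As those groups also differ in their WT and KO headings, these values do not check the marker labels. In culture Tox checked the labels, at 156 and 118 CPM in the TOX-GFP libraries against 13.8 and 21.4 in the GFP ones. Summed T cell identity genes ran from 7527 to 32406 CPM, and in marker-low libraries 1 to 3 stood at 20540, 11909 and 19765.5. Transcripts of other cells were present: the 10 macrophage markers summed to 114 to 288 CPM in naive, 1999, 8727 and 731 in marker-low, 4048 to 5996 in marker-high, 57.9 to 1095 in late and 3.88 to 7.49 in cultured libraries. The 8 neutrophil markers summed to 294, 1718 and 118 CPM in marker-low libraries and to at most 534 in any library of another group. The 12 hepatocyte markers summed to 1049 to 1921 CPM in 3 late libraries (late OT-I 2 and 3, late SV40-I 2) and to 0.496 to 629 in the other 16, and 7 of them were at 0 in both GFP libraries. Leaving out those 3 late libraries leaves only late OT-I library 1 in its group, so a late OT-I call lost there is lost to an unreplicated group. In bulk RNA, fewer cells with a transcript and less transcript per cell cannot be told apart.

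Against naive cells, the marker-high cells of days 8 to 9 had 15 of the 33 genes higher and 2 lower, where 14.3% and 9.1% of the 16404 genes tested were called. The marker-low cells of the same days had 16 higher and 2 lower, against 10.6% and 6.21% of all genes. In both groups the calls included 6 of the 7 lower-glycolysis genes, Ldha, Hk2, Pfkp, Pfkfb4, Slc16a3 and Pdk3 as higher, and Ldhb and Pdk1 as lower. By days 20 to 21, late SV40-I cells had 7 genes higher and 3 lower (11.1% and 6.86% of all genes), and late OT-I cells 3 higher and 2 lower (5.06% and 2.29%). Of these calls, 12 of 17, 11 of 18, 5 of 10 and 3 of 5 held under every alternative processing, in the same order. Cultured GFP cells had 20 genes higher than naive cells and 5 lower, where 17.6% and 15% of 18608 genes were called, and 19 of the 25 held.

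**Figure D1:**
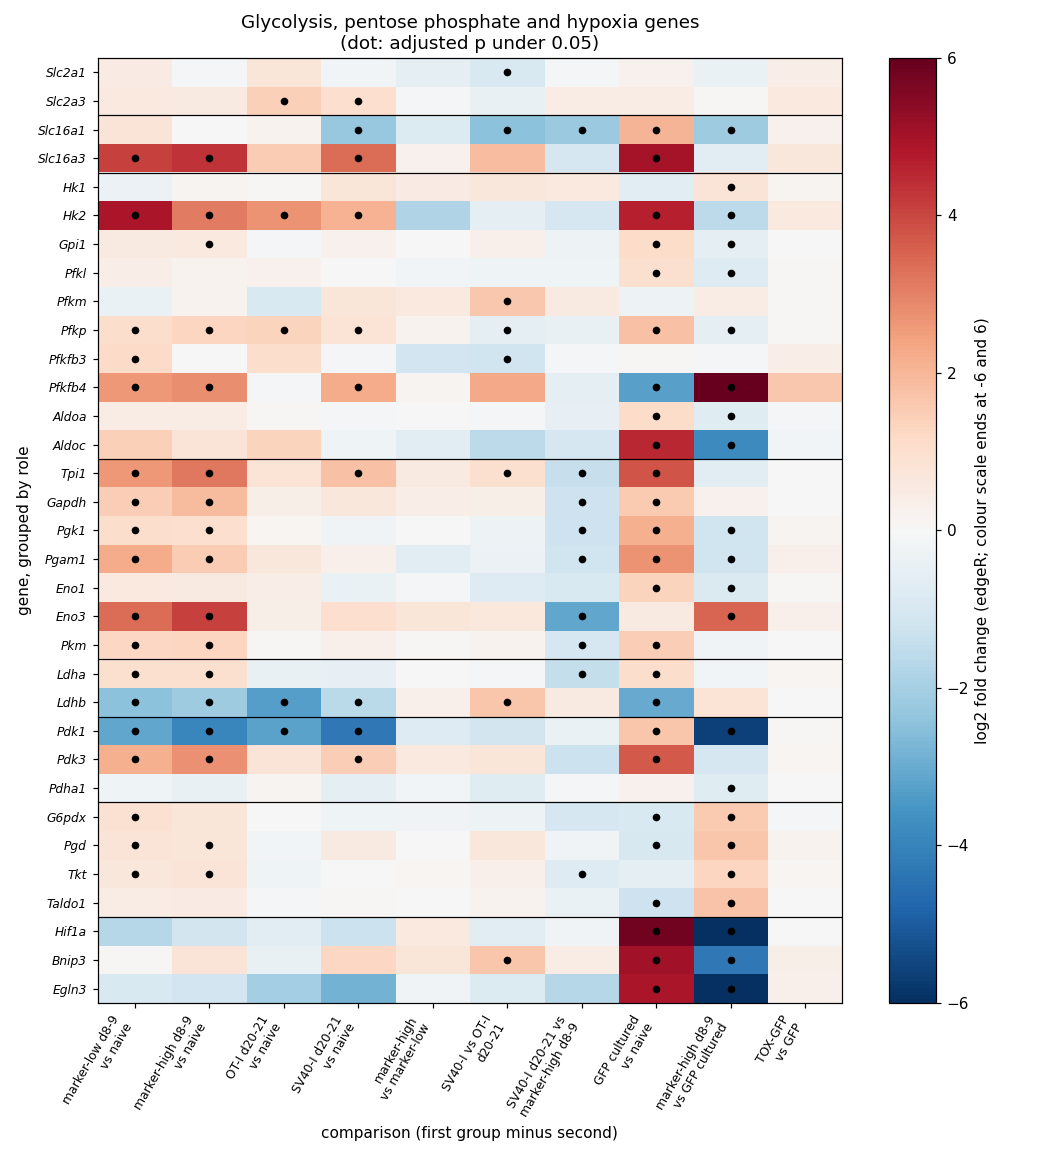
Log2 fold change of each of the 33 genes (rows, grouped by role) in each of the 10 comparisons (columns), with a dot where edgeR's adjusted p was under 0.05. The marker-low and marker-high columns carry dots on 6 of the 7 lower-glycolysis genes, and the 3 hypoxia genes carry dots in GFP against naive and in marker-high against GFP.

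Lower glycolysis, the steps that yield ATP, was higher in the day 8 to 9 cells than in naive cells for 6 of its 7 genes. Tpi1, which interconverts the triose phosphates, stood at 129.9, 137 and 116 CPM in naive, 799, 671 and 788 in marker-low and 1394, 1339.9 and 588 in marker-high libraries. Every day 8 to 9 library lay above every naive one, and marker-high library 3 lay below the other two of its group. The log2 fold changes were 2.62 ± 0.29, adjusted p = 8.42e-05 for marker-low and 3.14 ± 0.29, adjusted p = 1.38e-05 for marker-high cells. Tpi1 was also called in late SV40-I cells (368, 440.4 and 435 CPM, 1.78 ± 0.28, adjusted p = 0.000746), the 1 lower-glycolysis gene of 7 to be so, while in late OT-I cells 0 of the 7 were called by edgeR, 2 were at an unadjusted p under 0.05 and DESeq2 called 1. Tpi1 there stood at 214, 179.6 and 269.8 CPM (0.82 ± 0.27, adjusted p = 0.0956).

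Gapdh, which takes the triose phosphate into the energy-yielding steps, was likewise higher, with 646, 647 and 507 CPM in naive, 1952, 1176 and 1727 in marker-low and 2671, 2696 and 1231 in marker-high libraries (marker-high against naive 1.9 ± 0.29, adjusted p = 0.00059). Pgam1, a phosphoglycerate mutase, stood at 22.7, 27.8 and 20.3 CPM in naive, 114, 93.6 and 106 in marker-low and 82.7, 81.7 and 37.3 in marker-high libraries. Its call was 2.21 ± 0.29, adjusted p = 0.000272 in marker-low cells. Pkm, the pyruvate kinase of proliferating cells and muscle, was at 1516, 1178 and 1773 CPM in naive and 4375, 3936 and 2495 in marker-high libraries (1.31 ± 0.22, adjusted p = 0.0013). Pgk1, the first ATP-yielding enzyme, had the smallest of the 6 changes in marker-high cells (1.00 ± 0.26, adjusted p = 0.0156). That call was lost without marker-high library 1 or 2 or naive library 3. Eno1, the common enolase and the remaining gene, was not called in marker-low (0.58 ± 0.26, adjusted p = 0.137) or marker-high cells (0.52 ± 0.26, adjusted p = 0.158).

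Eno3, the enolase known as the muscle form, had the largest change of the lower-glycolysis genes. It stood at 14.7, 16.3 and 14.6 CPM in naive, 162, 123 and 162 in marker-low, 365, 279 and 117 in marker-high, 17.4, 20.6 and 19.5 in late OT-I, 19.7, 40.2 and 26.4 in late SV40-I, 29.4 and 27.9 in GFP and 30.2 and 41.5 in TOX-GFP libraries. No day 8 to 9 library overlapped with any other group. The log2 fold change against naive cells was 3.35 ± 0.37, adjusted p = 8.23e-05 in marker-low and 4.09 ± 0.38, adjusted p = 1.28e-05 in marker-high cells, and both calls held under every alternative. Unlike the other lower-glycolysis genes, Eno3 was not called in GFP cells against naive cells (0.53 ± 0.35, adjusted p = 0.262), and marker-high cells exceeded GFP cells by 3.5 ± 0.41, adjusted p = 2.28e-05. Per kilobase of exon, the log2 ratio of Eno3 to Eno1 was -5.01 to -4.78 in naive, -2.28 to -2.07 in marker-low, -1.72 to -1.19 in marker-high and -5.80 to -5.39 in cultured libraries, so Eno1 stayed the more abundant enolase in all 19 libraries. Macrophage markers were also higher in the day 8 to 9 than in the naive libraries, and their part in the Eno3 level was not tested.

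Ldha, which makes lactate from pyruvate, stood at 3055, 2501 and 2448 CPM in naive, 5243, 4063 and 5877 in marker-low and 6389.9, 6330.3 and 2328 in marker-high libraries. Marker-high library 3 lay below all 3 naive libraries, so the marker-high and naive groups overlapped. The calls were narrow (0.98 ± 0.30, adjusted p = 0.0424 in marker-low and 0.94 ± 0.30, adjusted p = 0.0406 in marker-high cells), and each was lost in most single-library omissions. Ldhb, the isoform of oxidative tissues, moved the other way: 75.8, 68.7 and 56.7 CPM in naive, 6.01, 20.7 and 9.16 in marker-low, 20.6, 11.5 and 12.7 in marker-high, 6.698, 6.57 and 7.15 in late OT-I, 24.9, 15.9 and 21.4 in late SV40-I and 9.96 to 11.4 in cultured libraries. All 16 other libraries lay below the 3 naive ones. The decrease was called in each of the 5 comparisons with naive cells, from -1.61 in late SV40-I to -3.28 in late OT-I cells; the 2 late calls were lost without the 3 hepatocyte-rich libraries, and the late SV40-I call also without late SV40-I library 2 alone. Per kilobase, the log2 ratio of Ldhb to Ldha was -4.34 to -4.10 in naive libraries and -8.60 to -5.02 in all others.

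**Figure D2:**
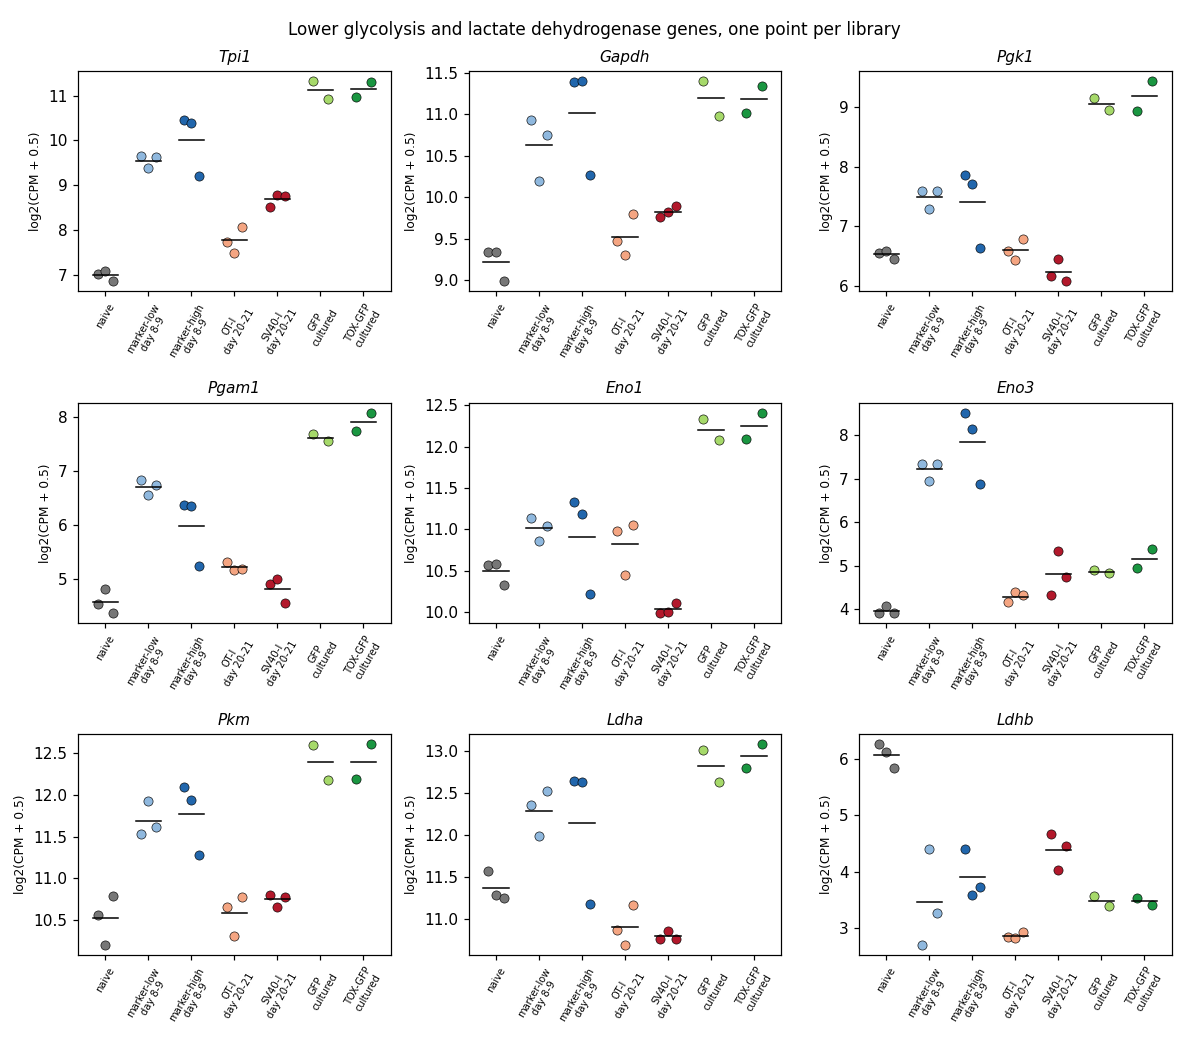
Level of 9 genes in every library as log2(CPM + 0.5), with a bar at each group's mean of that value. Tpi1, Gapdh, Pgk1, Pgam1, Eno3, Pkm and Ldha are higher in most day 8 to 9 libraries than in naive ones, marker-high library 3 is the lowest of its group for each of them, and Ldhb is highest in the naive libraries.

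These levels were lower in the late SV40-I cells than in the marker-high cells. The labels of the late cells name no sort on PD1, LAG3 or CD39, so day and sort cannot be told apart. Between marker-high cells of days 8 to 9 and SV40-I cells of days 20 to 21, 9 of the 33 genes were lower and 0 higher in the late cells, where 3.57% of all genes were called lower and 1.76% higher (edgeR; 1 gene was higher at an unadjusted p under 0.05, and DESeq2 called 12 lower and 0 higher). The 9 were Tpi1 (-1.37 ± 0.28), Gapdh (-1.23 ± 0.29), Pgk1 (-1.22 ± 0.26), Pgam1 (-1.21 ± 0.28), Eno3 (-3.1 ± 0.36), Pkm (-1.01 ± 0.22), Ldha (-1.44 ± 0.31), Slc16a1 (-2.24 ± 0.58) and Tkt (-0.75 ± 0.18, log2 fold changes with SE). Eno3 (adjusted p = 0.000501) alone was called under every alternative. Leaving out marker-high library 1 or 2, late SV40-I library 2 or 3, or the 3 hepatocyte-rich libraries left 1 gene called lower; leaving out late SV40-I library 1 left 3. Without marker-high library 3, 13 genes were lower and 1 higher, while 1669 of all genes were called in place of 874.

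The summed lower-glycolysis level was set beside the summed level of 24 cell cycle genes, and both were higher in every day 8 to 9 and cultured library than in any naive or late one. The 7 lower-glycolysis genes summed to 3936, 3638 and 3803 CPM in naive, 8426, 7975 and 8235 in marker-low and 11692, 10864 and 5761 in marker-high libraries. In the late libraries the sum ran from 3622 to 5191, and in the cultured libraries from 13634 to 17829 CPM. The cell cycle genes summed to 1082 to 1422 CPM in naive, 4654 to 4841 in marker-low, 9820.0, 10833 and 5827 in marker-high, 1095 to 1757 in late and 6291 to 8652 in cultured libraries. Marker-high library 3 was lowest of its group in both sums, and its erythroid and platelet markers summed to 1372 CPM against at most 132 in the other two. The part of dividing cells in the glycolysis result was not tested.

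Glucose enters through Slc2a1 (GLUT1) and Slc2a3 (GLUT3), and neither was called by edgeR or DESeq2 in marker-low, marker-high or GFP cells against naive cells (1, 0 and 0 at an unadjusted p under 0.05). Slc2a3 was called higher in the late cells: 206, 159.7 and 213 CPM in naive, 589.5, 538 and 425 in late OT-I (1.45 ± 0.28, adjusted p = 0.00634) and 467, 355 and 263 in late SV40-I libraries (0.99 ± 0.28, adjusted p = 0.0258). All 6 late libraries lay above all 3 naive ones, and both calls were lost without the 3 hepatocyte-rich libraries. The late SV40-I call was also lost without late SV40-I library 1 or 2 or any 1 naive library.

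The lactate exporters split. Slc16a3 (MCT4), known as the exporter of highly glycolytic cells, stood at 8.55, 3.44 and 4.54 CPM in naive, 49.1, 197 and 23.8 in marker-low, 123, 91.3 and 117 in marker-high, 15.8, 6.86 and 23.6 in late OT-I, 37.4, 52.9 and 70.6 in late SV40-I and 185 to 430.4 in cultured libraries. The marker-low libraries spanned a wide range, with library 2, the one rich in macrophage and neutrophil markers, highest. The calls against naive cells were 4.35 ± 0.75, adjusted p = 0.0013 in marker-high, 3.36 ± 0.72, adjusted p = 0.00574 in late SV40-I and 5.01 ± 0.74, adjusted p = 0.000111 in GFP cells. Slc16a1 (MCT1), which carries lactate in either direction, fell in late SV40-I cells to 18.7, 9.097 and 4.397 CPM from 57.1, 53.5 and 52.8 in naive libraries (-2.26 ± 0.58, adjusted p = 0.0165); this call was lost without late SV40-I library 2 or 3 or the 3 hepatocyte-rich libraries. In culture Slc16a1 was at 243 to 362 CPM, above every ex vivo library. The log2 ratio of Slc16a3 to Slc16a1 per kilobase was -4.04 to -2.94 in naive and 0.72 to 3.6 in late SV40-I libraries.

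In upper glycolysis, Hk2, the inducible hexokinase, was called higher than in naive cells in all 5 groups compared. It was near 1 CPM in naive libraries (1.12, 1.31 and 0.567) and stood at 14.2, 49.1 and 24.9 in marker-low, 8.22, 8.78 and 8.76 in marker-high, 3.100 to 7.35 in late and 28.1 to 52.9 in cultured libraries. The log2 fold changes ran from 2.1 in late SV40-I to 4.91 in marker-low cells. Hk1, the constitutive hexokinase, remained the more abundant per kilobase in every library, with a log2 ratio of Hk2 to Hk1 of -8.58 to -7.19 in naive and -3.95 to -2.66 in marker-low and cultured libraries. Pfkp, the platelet form of phosphofructokinase, was also called higher in all 5: 434, 343 and 442 CPM in naive, 764 to 976 in day 8 to 9, 623 to 1114 in late and 1767 to 1924 in cultured libraries, with 1.27 ± 0.15, adjusted p = 6.16e-05 in marker-high cells. Part of its exons overlaps Pitrm1 on the other strand, which reached 199.9 CPM, and the counting is not stated to use strand.

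Pfkfb3 and Pfkfb4 set the level of fructose 2,6-bisphosphate, which activates phosphofructokinase. Pfkfb4 stood at 9.65, 11.8 and 17.6 CPM in naive, 32.9, 182 and 16.2 in marker-low, 91.8, 51.9 and 117 in marker-high, 12.7, 9.16 and 14.4 in late OT-I, 61.2, 49.5 and 59.8 in late SV40-I, 0.654 and 2.79 in GFP and 6.099 and 4.41 in TOX-GFP libraries. All marker-high and late SV40-I libraries lay above the naive ones and all cultured libraries below them, while marker-low library 3 and 2 of the 3 late OT-I libraries lay within the naive range. Against naive cells it was 2.78 ± 0.70, adjusted p = 0.0128 in marker-high and -3.28 ± 0.88, adjusted p = 0.00932 in GFP cells, a call lost without GFP library 1. Marker-low library 2 had the highest level of all 19 and the highest macrophage and neutrophil sums, and without it the marker-low call was lost. In late SV40-I libraries 1 to 3 the macrophage markers summed to 57.9, 1095 and 872 CPM, and Pfkfb4 stood at 61.2, 49.5 and 59.8 CPM. The part of macrophage and neutrophil transcripts in these Pfkfb4 levels was not tested. Pfkfb3 was called higher only in marker-low cells (1.16 ± 0.33, adjusted p = 0.0283) among the comparisons with naive cells, and without marker-low library 2 or naive library 2 or 3 that call was lost.

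Gpi1, Pfkl and Aldoa, the isomerase, liver-type phosphofructokinase and main aldolase of the upper pathway, rose in GFP cells by log2 1.08 ± 0.19, 0.97 ± 0.25 and 1.12 ± 0.23. In the day 8 to 9 cells, the 1 call among them was Gpi1 in marker-high cells (0.57 ± 0.18, adjusted p = 0.04), lost in 6 alternatives. Aldoc, the brain-type aldolase, was at 0.627 to 10.9 CPM in all 15 ex vivo libraries and at 52.5 to 91.5 in culture (4.53 ± 0.64, adjusted p = 6.94e-05). Pfkm, the muscle phosphofructokinase, was not called by edgeR or DESeq2 in any comparison with naive cells, and Hk1 by DESeq2 only, in late SV40-I cells. Pfkm ran from 9.32 to 14.5 CPM in late OT-I to 27.4 to 49.9 in late SV40-I libraries.

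Pyruvate dehydrogenase kinases switch off the enzyme that turns pyruvate into acetyl-CoA inside mitochondria, and 2 of them moved in opposite directions in the lesions. Pdk1 stood at 68.4, 64.3 and 119 CPM in naive, 5.97, 9.91 and 12.2 in marker-low, 7.01, 5.399 and 3.94 in marker-high, 7.92, 14.9 and 4.57 in late OT-I and 5.696, 2.25 and 4.13 in late SV40-I libraries. All 12 lesion libraries were below all 3 naive libraries, with log2 fold changes of -3.11 ± 0.48, adjusted p = 0.00104 in marker-low, -3.91 ± 0.50, adjusted p = 0.000158 in marker-high, -3.2 ± 0.49, adjusted p = 0.00113 in late OT-I and -4.28 ± 0.51, adjusted p = 0.000101 in late SV40-I cells. Each of the 4 calls held under every alternative. In culture Pdk1 was at 299 and 378 CPM in GFP and 319 and 392 in TOX-GFP libraries, higher than in naive cells (1.65 ± 0.44, adjusted p = 0.00952, lost without GFP library 2).

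Pdk3 rose in 3 of these 4 lesion groups. It stood at 6.94, 10.03 and 6.31 CPM in naive, 26.4, 38.2 and 34.3 in marker-low, 60.1, 59.3 and 32.7 in marker-high, 8.92, 19.5 and 11.2 in late OT-I and 30.9, 16.7 and 13.05 in late SV40-I libraries. The changes were 2.14 ± 0.39, adjusted p = 0.00325 in marker-low, 2.73 ± 0.40, adjusted p = 0.000433 in marker-high and 1.46 ± 0.39, adjusted p = 0.0191 in late SV40-I cells, and Pdk3 was not called in late OT-I cells (0.76 ± 0.38, adjusted p = 0.276). The log2 ratio of Pdk3 to Pdk1 per kilobase was below 0 in naive libraries (-2.53 to -1.02), above 0 in all lesion libraries (1.76 to 4.95) and near 0 in cultured ones (0.09 to 0.38). Pdha1, the catalytic subunit that these kinases act on, was not called against naive cells by edgeR or DESeq2 in any group, with 88.9 to 155 CPM in naive and 64.2 to 174 in lesion libraries.

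**Figure D3:**
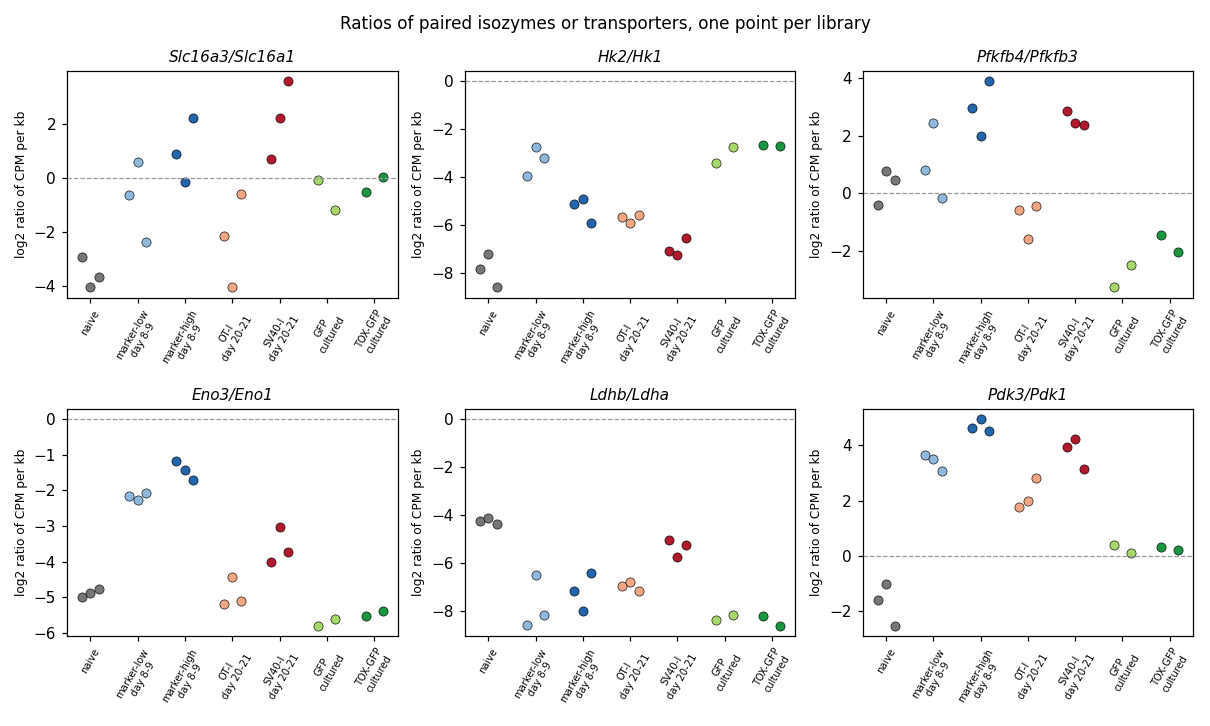
Log2 ratio of CPM per kilobase for 6 pairs of isozymes or transporters in every library, with 0.5 CPM added to each level and a dashed line at equal levels. The Pdk3 to Pdk1 ratio is below 0 in the 3 naive libraries and above 0 in all others, and Eno3 to Eno1 is highest in the 6 day 8 to 9 libraries.

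Some of the 4 pentose phosphate genes were called higher in the day 8 to 9 cells, and Taldo1 in neither of those groups. Pgd, the second oxidative enzyme, stood at 236, 187 and 239.5 CPM in naive, 279, 537 and 285 in marker-low, 396, 343 and 349 in marker-high and 136 to 176 in cultured libraries. Tkt, the transketolase of the non-oxidative arm, stood at 601, 519.6 and 638 CPM in naive, 825, 1015 and 838 in marker-low and 1138, 1071 and 780.4 in marker-high libraries (0.80 ± 0.18, adjusted p = 0.00809), without overlap. Against naive cells the higher calls were 3 of the 4 genes in marker-low and 2 in marker-high cells, but of these 5 calls only Tkt in marker-high cells held under every alternative. Marker-low library 2 had the highest level of all 4 genes in its group and the highest macrophage and neutrophil sums. Without it the calls of G6pdx, Pgd and Tkt in marker-low cells were lost. Against naive cells edgeR and DESeq2 called 0 of the 4 in late SV40-I cells and 0 in late OT-I cells, with 1 and 0 at an unadjusted p under 0.05.

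In GFP cells, 3 of the 4 were lower than in naive cells while glycolysis genes were higher. Taldo1, the transaldolase, stood at 563, 626 and 465 CPM in naive, 330.2 and 278 in GFP and 309 and 285 in TOX-GFP libraries, with -1.24 ± 0.21, adjusted p = 0.000387. G6pdx, the first and rate-setting enzyme, was at 252, 195 and 247 CPM in naive and 165 and 157 in GFP libraries (-0.90 ± 0.27, adjusted p = 0.0203), and Pgd fell by a like amount (-0.97 ± 0.24, adjusted p = 0.00574). The G6pdx and Pgd calls were lost with library totals as the only scaling, and without either GFP library. All 4 genes were higher in marker-high than in GFP cells, from 1.27 ± 0.20 for Tkt to 1.69 ± 0.22 for Taldo1 on the log2 scale. G6pdx shares exon sequence with Ikbkg on the other strand, which had a median of 128 CPM.

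**Figure D4:**
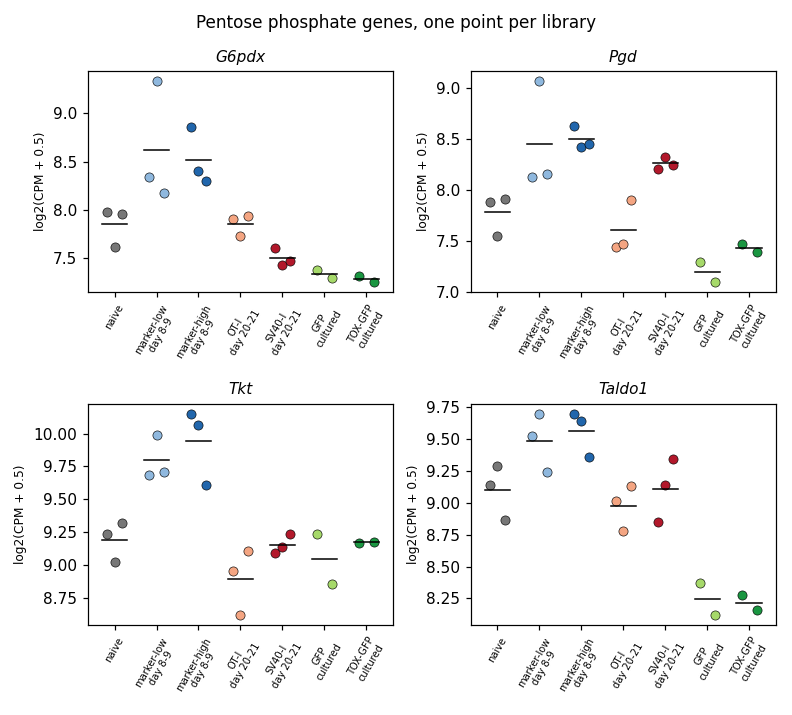
Level of the 4 pentose phosphate genes in every library as log2(CPM + 0.5), with a bar at each group's mean of that value. For G6pdx, Pgd and Taldo1 the 2 GFP libraries lie below the 3 naive ones, and marker-low library 2 is the highest marker-low library for each gene.

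The 3 hypoxia-response genes separated the cultured cells from all ex vivo cells. Hif1a, which encodes the oxygen-regulated subunit of HIF-1, stood at 5.39, 6.92 and 12.5 CPM in naive, 0.927 to 8.38 in lesion, 445 and 718 in GFP and 572 and 588 in TOX-GFP libraries. Bnip3, a mitophagy receptor, was at 2.398 to 17.97 CPM in the 15 ex vivo libraries and 317 to 468 in culture. Egln3, a prolyl hydroxylase that marks HIF-α proteins for destruction, was at 0.0471 to 8.68 CPM ex vivo and 278 to 432 in culture. GFP cells exceeded naive cells by log2 5.77 ± 0.66, adjusted p = 1.2e-05 for Hif1a, 5.05 ± 0.47, adjusted p = 2.09e-06 for Bnip3 and 4.9 ± 0.84, adjusted p = 0.000375 for Egln3. The same 3 genes were lower in marker-high than in GFP cells by -6.92 ± 0.69, -4.31 ± 0.45 and -6.1 ± 0.89 (adjusted p = 8.45e-06, 1.06e-05 and 0.000119). Between lesion and naive cells edgeR called 0 of the 3 in any group. At an unadjusted p under 0.05 there were 0 in marker-high, 1 in marker-low, 2 in late SV40-I and 1 in late OT-I cells, and DESeq2 called 1 in marker-low cells (Hif1a, lower) and 2 in late SV40-I cells (Egln3, lower, and Bnip3, higher).

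Gaps of this size between culture and naive cells were not confined to these genes. Of 18608 genes tested, 1157 (6.22%) were called with a log2 fold change above 4 and 337 (1.81%) with one below -4, and 6 of the 33 genes were among the first. Every cultured library lay above every ex vivo library for 16 of the 33 genes and for 20.7% of all genes tested. They included genes of basic metabolism at 1 to 3 CPM in naive cells, such as Pgls, the lactonase of the pentose phosphate pathway (1.75 ± 1.098 CPM (SD, n = 3) in naive, 154 ± 11.02 CPM (SD, n = 2) in GFP libraries). Culture, activation, transduction and any difference in handling between the 2 sets of libraries cannot be told apart.

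The promoters of several of these genes show ACGTG, 1 form of the core letters of a hypoxia response element. The other form, GCGTG, was not counted, and on 1 strand or the other it stands in the Pdk1 and Eno3 sequences below. Windows of 250 bases before to 50 after the start (RefSeq, GRCm38.p6) were found for 32 of the 33 genes, with none for Slc2a3. The letters ACGTG, read on both strands, stood in the windows of 19 of the 32 genes (59.4%) against 21.8% of the 27025 genes with a window. CACGTG, the E-box that contains it, stood in 6 of the 32 (18.8%) against 8.09%. The median GC content was 61% in the windows of these genes and 52.7% in all windows, and a match describes letters, not binding. By call in GFP against naive cells, ACGTG stood in the windows of 14 of the 20 genes that were higher, 1 of the 5 that were lower and 4 of the 7 that were not called. Shown are the 250 bases before the first listed start of 4 genes that hold ACGTG and rose in GFP cells. Also shown are Pdk1, which rose, and Eno3, which was not called in GFP cells, and neither holds ACGTG. Capitals mark ACGTG on either strand.
Ldha, chr7:46845554-46845803, plus strand: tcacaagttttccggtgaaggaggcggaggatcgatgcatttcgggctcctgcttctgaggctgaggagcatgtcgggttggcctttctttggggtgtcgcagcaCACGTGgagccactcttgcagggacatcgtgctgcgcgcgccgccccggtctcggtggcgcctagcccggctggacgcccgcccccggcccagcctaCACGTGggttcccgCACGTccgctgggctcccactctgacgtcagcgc
Pgk1, chrX:106186850-106187099, plus strand: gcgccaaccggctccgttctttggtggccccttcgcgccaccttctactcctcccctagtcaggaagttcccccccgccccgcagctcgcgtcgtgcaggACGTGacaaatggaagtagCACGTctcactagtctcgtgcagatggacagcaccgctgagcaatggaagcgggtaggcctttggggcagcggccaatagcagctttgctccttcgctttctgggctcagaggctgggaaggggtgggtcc
Bnip3, chr7:138909507-138909756, minus strand: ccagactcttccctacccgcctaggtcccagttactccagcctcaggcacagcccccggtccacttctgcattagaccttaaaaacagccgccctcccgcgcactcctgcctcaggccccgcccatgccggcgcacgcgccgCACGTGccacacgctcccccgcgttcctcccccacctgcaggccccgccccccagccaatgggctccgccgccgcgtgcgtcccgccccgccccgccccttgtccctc
Egln3, chr12:54203875-54204124, minus strand: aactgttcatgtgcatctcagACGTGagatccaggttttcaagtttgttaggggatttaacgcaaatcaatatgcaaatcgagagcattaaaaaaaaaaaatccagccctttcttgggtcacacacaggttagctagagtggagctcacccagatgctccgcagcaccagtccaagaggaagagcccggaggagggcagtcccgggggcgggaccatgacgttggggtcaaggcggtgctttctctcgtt
Pdk1, chr2:71872974-71873223, plus strand: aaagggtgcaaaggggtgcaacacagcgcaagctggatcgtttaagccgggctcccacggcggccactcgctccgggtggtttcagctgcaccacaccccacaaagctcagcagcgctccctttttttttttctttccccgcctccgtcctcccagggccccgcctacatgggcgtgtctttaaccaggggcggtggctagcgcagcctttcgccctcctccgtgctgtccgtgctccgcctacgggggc
Eno3, chr11:70656926-70657175, plus strand: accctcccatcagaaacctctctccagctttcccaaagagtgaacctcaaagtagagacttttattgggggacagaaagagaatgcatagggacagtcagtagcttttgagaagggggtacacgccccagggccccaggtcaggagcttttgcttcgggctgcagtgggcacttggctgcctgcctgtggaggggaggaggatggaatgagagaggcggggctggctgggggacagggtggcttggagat

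Ldha holds 2 copies of CACGTG and 1 more match on the minus strand, Pgk1 holds a match on each strand, Bnip3 holds 1 CACGTG and Egln3 a match 229 bases before its start. In culture Ldha ran from 6366 to 8658 CPM, Pgk1 from 487 to 695, Bnip3 from 317 to 468 and Egln3 from 278 to 432, not scaled by gene length. In marker-high libraries Ldha and Pgk1 were called higher than in naive cells, and Bnip3 (0.78 ± 0.45, adjusted p = 0.226) and Egln3 (-1.15 ± 0.89, adjusted p = 0.368) were not. The relation of the promoter letters to these levels and calls was not tested.

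**Figure D5:**
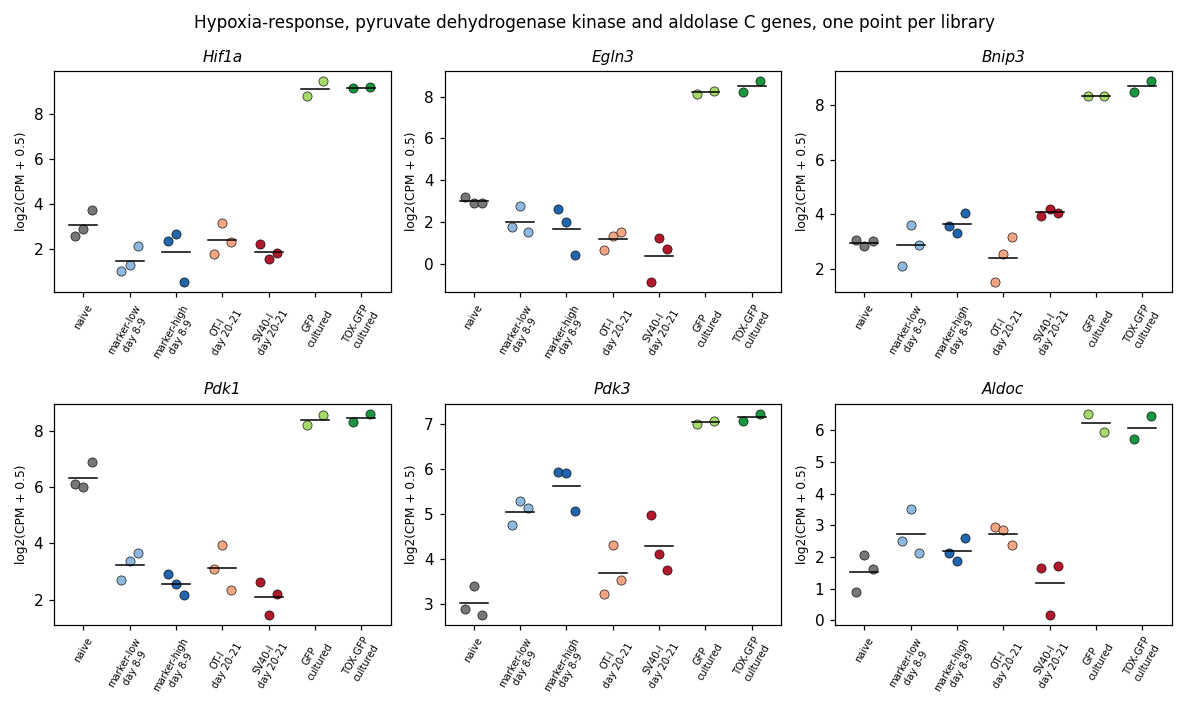
Level of Hif1a, Egln3, Bnip3, Pdk1, Pdk3 and Aldoc in every library as log2(CPM + 0.5), with a bar at each group's mean of that value. The 4 cultured libraries lie above all 15 ex vivo libraries for each gene, and Pdk1 is lower in all lesion libraries than in naive ones.

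Marker-high and GFP cells, both activated, differed widely: 7 of the 33 genes were higher and 15 lower in marker-high cells, where 17.8% and 16.8% of all genes were called (34.6% in either direction). The higher genes were the 4 pentose phosphate genes, Eno3, Pfkfb4 (6.02 ± 1.01, adjusted p = 0.000347) and Hk1, whose groups overlapped. The lower ones included Pdk1 (-5.6 ± 0.50, adjusted p = 4.15e-06), Aldoc, Slc16a1, Pgk1 (-1.19 ± 0.27, adjusted p = 0.00319), Pgam1 and the 3 hypoxia genes. Tpi1, Gapdh, Pkm and Ldha were not called between them, with log2 fold changes of -0.67 ± 0.29, 0.26 ± 0.31, -0.23 ± 0.24 and -0.18 ± 0.32. Without GFP library 2 the count of lower genes was 8, and of the 22 calls 13 held under every alternative. With library totals as the only scaling, which moved the median of all genes in this comparison from 0.053 to -0.192, 37.9% of all calls were higher in marker-high cells in place of 51.4%. In GFP against naive cells the same change moved that median from 0 to 0.256 and the share of calls that were higher from 54% to 67.4%.

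Late SV40-I cells against late OT-I cells, both from lesions but of different receptor lines, had 4 genes higher and 4 lower, where 4.91% and 4.11% of all genes were called (9.02% in either direction). Higher in SV40-I cells were Pfkm (1.64 ± 0.36, adjusted p = 0.0121), Ldhb (1.67 ± 0.40, adjusted p = 0.0196), Bnip3 (1.65 ± 0.46, adjusted p = 0.041) and Tpi1 (0.96 ± 0.27, adjusted p = 0.0459). Lower were Slc16a1 (-2.45 ± 0.58, adjusted p = 0.0189), Pfkfb3 (-1.2 ± 0.33, adjusted p = 0.0373), Slc2a1 (-0.92 ± 0.26, adjusted p = 0.043) and Pfkp (-0.53 ± 0.14, adjusted p = 0.0351). Slc2a1, the main glucose transporter of activated T cells, stood at 152, 101 and 122 CPM in SV40-I and 282, 209.6 and 248 in OT-I libraries, and Bnip3 at 15.02, 17.97 and 16.2 and 2.398, 5.43 and 8.55. In each of the 8 genes the 3 SV40-I libraries lay apart from the 3 OT-I libraries. The same held for 18 of the 33 genes, counting these 8, so it does not set the called genes apart. Its share over all genes is not given here. Erythroid and platelet markers also separated these groups, with sums of 98.97 to 784 CPM in SV40-I and 1297 to 3613 in OT-I libraries, and their part in these 8 genes was not tested. None of the 8 calls held under every alternative. Leaving out any 1 late library left at most 3 of the 8. Leaving out the 3 hepatocyte-rich libraries leaves only late OT-I library 1 in its group, so that fit cannot decide on these calls. Pfkfb4, at 49.5 to 61.2 CPM in SV40-I and 9.16 to 14.4 in OT-I libraries, just missed the threshold (2.29 ± 0.68, adjusted p = 0.0558).

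Marker-high and marker-low cells of days 8 to 9 were compared directly, and edgeR called 0 of the 33 genes between them, where 1.19% of all genes were called, 0.475% higher and 0.719% lower. At an unadjusted p under 0.05, 1 was higher and 4 lower, 15.2% of the 33 against 11.3% of all genes, and DESeq2 called 2 (Hk2 and Pfkfb3, lower). Hk2 stood at 14.2, 49.1 and 24.9 CPM in marker-low and 8.22, 8.78 and 8.76 in marker-high libraries, without overlap (-1.79 ± 0.45, adjusted p = 0.0877). Pfkfb3 stood at 29.02, 51.7 and 28.9 and 18.1, 19.9 and 11.8 CPM, also without overlap (-1.17 ± 0.33, adjusted p = 0.131). In both genes marker-low library 2 was highest. Eno3 differed by 0.74 ± 0.34, adjusted p = 0.432. Log2 fold changes were under 1 in size for 31 of the 33 genes, with SEs of up to 0.88.

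The TOX retrovirus was compared with the GFP one in culture. Between TOX-GFP and GFP cells, 0 of the 33 genes and 0 of 14614 genes (0%) were called by edgeR. Tox itself, at 156 and 118 CPM against 13.8 and 21.4, was thus not called either. With 2 libraries per group, the 0 of the 33 therefore says little about smaller changes. DESeq2 called 560 of all genes and 0 of the 33, and at an unadjusted p under 0.05 there were 3 of the 33, all higher, and 1906 of all genes. The 3 were Hk2 (45.9 and 52.9 CPM against 28.1 and 38.02, 0.58 ± 0.19, adjusted p = 0.321), Slc16a3 (304 and 430.4 against 276 and 185, 0.67 ± 0.25, adjusted p = 0.352) and Slc2a1 (272 and 344 against 251 and 217, 0.39 ± 0.15, adjusted p = 0.369). Log2 fold changes ran from -0.15 to 1.61, and 32 of the 33 were under 1 in size, Pfkfb4 being the exception (1.61 ± 0.66, adjusted p = 0.388). The count depended on GFP library 2: without it, which leaves 1 GFP library assumed to vary like the TOX-GFP ones, Slc16a1, Hk2, Pfkfb3 and Pfkfb4 were called higher and 1400 of all genes were called.

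Lists of 97 other genes of these pathways placed the 33 in context. Of 23 tested genes for other glycolytic isozymes and sugar entry, 9 were higher in marker-high than in naive cells (39.1%, against 14.3% of all genes), with a median log2 fold change of 1.01 against 0.06 for all genes. Among the largest were Slc2a6, a glucose transporter family member (5.33 ± 1.5, adjusted p = 0.0222), and Hk3, a hexokinase of myeloid cells (3.47 ± 1.15, adjusted p = 0.0443). Macrophage markers summed to 4048 to 5996 CPM in those libraries, and their part in these genes was not tested.

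Of 23 regulators of glucose use, 4 were higher and 3 lower in marker-high than in naive cells (17.4% and 13%, against 14.3% and 9.1% of all genes). The largest were Bhlhe40, a transcription factor of activated T cells (5.28 ± 0.41, adjusted p = 3.17e-06), Irf4, induced by receptor signalling (2.57 ± 0.74, adjusted p = 0.025), and Foxo1, a factor of naive and memory cells (-2.46 ± 0.54, adjusted p = 0.00614). Myc, which drives glycolytic genes on activation, was the 1 regulator called between marker-high and marker-low cells (277 ± 62.4 CPM (SD, n = 3) against 625 ± 150.3 CPM (SD, n = 3), -1.2 ± 0.25, adjusted p = 0.0366), and it was lower in late SV40-I than in marker-high cells (-1.14 ± 0.25, adjusted p = 0.0186). With a replicate block by the column-heading numbers, 0 of all genes were called between marker-high and marker-low cells, so the Myc call was lost there. Calls of the regulators were not followed through the other alternatives. In the late comparison Txnip, which restrains glucose uptake, was lower in SV40-I than in OT-I cells (-2.17 ± 0.35, adjusted p = 0.0019), with Max higher (1.25 ± 0.25, adjusted p = 0.00665) and Myc lower (-1.25 ± 0.25, adjusted p = 0.0067).

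Of 22 tested genes on the other hypoxia list, 9 were higher and 5 lower in GFP than in naive cells (40.9% and 22.7%, against 17.6% and 15% of all genes). Vegfa, the vascular growth factor, had 0 counts in all 3 naive libraries and 30.2 ± 5.96 CPM (SD, n = 2) in GFP libraries, at least 1440-fold higher against a floor of 3 counts over the naive group. P4ha2, a collagen prolyl hydroxylase, and Ero1l, an oxidase of protein folding, followed (8.16 ± 1.57, adjusted p = 0.000937 and 8.15 ± 0.91, adjusted p = 9.89e-06). In marker-high against naive cells 2 of 20 tested genes on that list were higher and 3 lower (10% and 15%, against 14.3% and 9.1% of all genes). The 3 called genes with the largest fold changes were Plin2, a lipid droplet protein (3.05 ± 0.42, adjusted p = 0.000281), Kdm3a, a histone demethylase (-2.81 ± 0.65, adjusted p = 0.0082), and Car9, a carbonic anhydrase (2.45 ± 0.79, adjusted p = 0.0406). Of 15 other tested genes of pyruvate entry and its control, 2 were higher and 1 lower in that comparison (13.3% and 6.67%), shares below those of all genes. Of 8 other pentose phosphate genes the largest change was in Prps2 (-1.02 ± 0.38, adjusted p = 0.0655), which missed the threshold. In late SV40-I against naive cells 2 of those 8 were lower, where 6.86% of all genes were: Prps2 (-2.04 ± 0.39, adjusted p = 0.00269) and Prps1 (-1.34 ± 0.19, adjusted p = 0.000355), which make the ribose donor of nucleotide synthesis.

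Several values carry a limit from the counting. Pseudogenes and near copies of Gapdh, Pgk1, Ldha and Pgam1 reached at most 2.35 CPM each, and Eno1b, a near copy of Eno1, ran from 5.26 to 53.5 CPM, so reads may have been split or dropped between Eno1 and Eno1b. Levels of these genes are uncertain to that extent.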

How the data were processed

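RNA from 19 libraries of mouse CD8 T cells was amplified with a low-input kit and sequenced as paired-end reads, per the labels' protocols. The deposited values are whole-number counts per gene, made by the authors with featureCounts 1.6.2 on GENCODE M17 gene models of GRCm38, per the file headers, and STAR, FastQC and DESeq2 are named in the submitters' processing notes. No option for strand or for reads with several matches appears in the headers, and read pairs were counted by gene name. Amplification from little RNA can widen the spread of low counts. All per-sample count columns were used (0 left out). Totals and depth are in the text above.

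The 33 genes, the role groups and the 5 lists of 97 other pathway genes were chosen with earlier results of these data known. Other genes named are the 3 called genes of largest log2 fold change of a list in a comparison, plus Tox, less 1 gene that is not reported here; Pgls, Prps2 and Myc in marker-high against late cells were chosen after their values were seen, or were the only ones called. Counts were fitted in R 4.3.3 with edgeR 4.0.16 (quasi-likelihood F test, TMM scaling, filterByExpr, Benjamini-Hochberg over all genes tested) by group alone, in 3 fits: 15 ex vivo libraries (16404 genes), 4 cultured libraries (14614) and all 19 (18608). The threshold was an adjusted p of 0.05. Levels are CPM by library total, and fold changes use TMM. Alternatives were median-of-ratios size factors, DESeq2 1.42.0, no filter, replicate blocks, single libraries left out, the 3 hepatocyte-rich libraries left out and, added after the data were seen, library totals without TMM. The code was tested on simulated counts. Replicate libraries of a group differed by far more than counting noise (chi-square per degree of freedom 29.9 to 485).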

Additional observations from a re-analysis of the deposited data

How the results depend on the processing

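No called change of the 33 genes reversed its direction under any alternative. Of all 114 calls over the 8 comparisons that had any, 64 held under every alternative, and the cause of the losses was not tested except that leaving out libraries reduces their number. With the 3 hepatocyte-rich libraries left out, late SV40-I against late OT-I gave 0 genes higher and 0 lower of the 33 and 227 of all genes, late SV40-I against naive gave 1 lower, late OT-I against naive gave 1 lower and 414 of all genes, and late SV40-I against marker-high gave 1 lower and 280 of all genes. DESeq2 called 2440 of all genes in late SV40-I against late OT-I, 737 (and 2 of the 33 lower) in marker-high against marker-low, 4299 in marker-low against naive, 2339 (and 5 of the 33 higher) in late OT-I against naive, 2197 in late SV40-I against marker-high and 560 in TOX-GFP against GFP. In late SV40-I against late OT-I, median-of-ratios size factors left 2 lower, library totals alone 2 higher, and no filter 2 higher and 2 lower. Library totals alone left 3 lower in GFP against naive, and no filter gave 6 of all genes in TOX-GFP against GFP.

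Leaving out 1 library at a time gave, in late SV40-I against late OT-I, 0 to 2 higher, 0 to 3 lower and 872 to 1111 of all genes; in marker-high against marker-low 38 to 159 of all genes; in marker-high against naive 2414 to 3581 of all genes; and in marker-low against naive 9 to 15 higher and 1402 to 2174 of all genes. It gave 773 to 861 of all genes in late OT-I against naive, 4 to 6 higher and 1 to 3 lower in late SV40-I against naive, and 0 to 1 higher, 1 to 13 lower and 311 to 1669 of all genes in late SV40-I against marker-high. In culture it gave 0 to 4 higher and 0 to 1400 of all genes in TOX-GFP against GFP, 2 to 5 lower and 3760 to 5324 of all genes in GFP against naive, and 8 to 14 lower and 3753 to 5686 of all genes in marker-high against GFP.

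The replicate numbers of the titles were compared across groups by correlating the deviations of the libraries. Of 32 pairs with the same number in different groups, 9 correlated above 0.1 (range -0.321 to 0.326, median 0.056). The 62 pairs with other numbers ran from -0.455 to 0.408, with a median of -0.017. Their count above 0.1 is not given here. Libraries of a group deviate from a shared mean, so these values are not independent. Whether the title numbers pair the libraries was not tested. A replicate block by those numbers left 3 higher and 3 lower in late SV40-I against late OT-I and moved no count by over 1.5 times. The numbers in the column headings are shared by 2 pairs of late and 2 pairs of early libraries. Naive libraries also share heading numbers with lesion libraries. In culture the headings carry the letters A and B, which match the title numbers across the GFP and TOX-GFP libraries. Deviations of the late pairs correlated at -0.011 and 0.408, and those of the early pairs at 0.106 and 0.277. The main fits do not use these numbers, and pairing by them remains possible. A replicate block by them, on those 2 groups alone, gave 0 higher, 0 lower and 138 of all genes in the late comparison and 0 of all genes in marker-high against marker-low.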
